A study of Mus musculus with 15 samples.

Results

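ERVL elements are long terminal repeat (LTR) retroelements related to endogenous retroviruses with a leucine tRNA primer binding site. The small RNAs described here came from piRNA loci of the mouse genome that the deposited annotation placed in repeat class LTR and family ERVL, so the related family ERVL-MaLR was left out. A locus was 1 genomic interval on 1 strand with the number of reads that began and ended there. ERVL loci numbered 107968 of the 8128951 piRNA loci listed over all libraries, and they carried 49 element names, among them RMER10A, RMER15, the MT2 names and MERVL. Loci of 1 element name on 1 strand that lay no more than 100 nt apart were joined into 729 copies.

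All RNA came from testes of C57Bl/6 males aged 8 weeks, and small RNA was cut from gels before library preparation. There were 5 groups of 3 libraries. In the first experiment, small RNA was treated with CMC, a carbodiimide that leaves a bulky adduct on pseudouridine (Ψ), or was mock-treated. In the second experiment, small RNA was incubated with an antibody against Ψ, which gave Ψ-IP and flow-through (unbound) libraries beside the input. The CMC experiment used the NEBNext kit and the Ψ-IP experiment the Nextflex kit, so kit and experiment cannot be told apart where their levels differ. The labels do not say whether replicates were different animals, so p-values may measure only technical spread. Whole testis was used, and few cells rich in a piRNA cannot be told apart from many cells poor in it.

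piRNAs are small RNAs bound by PIWI proteins in germ cells, where they guide the silencing of transposable elements and, in meiotic and postmeiotic cells, also arise in large amounts from long cluster transcripts. Most begin with uridine, and the PIWI proteins MILI and MIWI hold piRNAs of somewhat different length. MERVL, whose LTRs carry MT2 names, is known for its brief transcription in early mouse embryos, whereas RMER and MLT2 elements are older LTR sequences scattered over the genome. Ψ is an isomer of uridine. RNA that carries it can be gained in a Ψ-IP, and its CMC adduct blocks reverse transcriptase, so that such RNA can be depleted from CMC libraries.

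The sequences below are loci of ERVL copies that lie inside annotated exons, read 5′ to 3′ on the strand of the piRNA from transcript sequences of build GRCm38 (mm10), with the first base in capitals. They are shown because the results below turn on the copies they come from. The RMER15 locus chr7:73824161-73824190 (+) lies in an exon of the noncoding gene Gm21269, both MER74B loci (chr5:143764015-143764044 and chr5:143763921-143763950, +) in an exon of D130017N08Rik, and the MT2C locus chr17:27338792-27338818 (+) in an exon of Gm10505.
RMER15 on chromosome 7: Tagcatggatggtgagctaggaaagctacc
MER74B, leading 5′ end: Taccaggggcgtggctatcttgaacaaact
MER74B, upstream locus: Tgttaggatggtttggtatttcccaaagtt
MT2C on chromosome 17: Tgaactcagagatctccttatcttaat
Each began with T, the DNA letter for uridine. Sequence could be read for 14113 ERVL loci, 13.1% of the loci with 11.7% of the ERVL counts. Among these, 93.5% of counts began with T (91.5 to 95.1% over the 15 libraries). At position 10, where piRNAs made by ping-pong cleavage carry adenosine, A took 18.0% of counts.

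The libraries held 11575705 to 58399368 piRNA counts, of which 114648 to 736257 fell in ERVL loci. Replicates of a group differed beyond counting noise in every pair (chi-square per degree of freedom 1.64 to 6.06). The most frequent length of ERVL piRNAs was 30 nt in all 15 libraries. Protein-coding testis markers were not measured in these small RNA counts.

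ERVL loci took 1.26% ± 0.0062 (SD, n = 3) of counts in mock-treated, 1.35% ± 0.016 in CMC-treated, 1.09% ± 0.0043 in input, 1.02% ± 0.022 in Ψ-IP and 1.20% ± 0.028 in flow-through libraries. The share was thus 0.078 percentage points lower in Ψ-IP than in input and 0.096 points higher after CMC than in mock. In neither comparison did the groups overlap, and the exact permutation test (two-sided) gave p = 0.1, the smallest value that 3 libraries against 3 allow. With RMER10A, the most abundant name, left out, the differences were -0.0999 and 0.0583 points.

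A few genomic copies supplied most of the listed ERVL piRNAs. Per the study's methods, piRNA reads were those that intersected mouse piRNA clusters, so copies outside these clusters may be missing. The most abundant copy, an RMER10A element, held 14.9% of ERVL counts on average, the top 8 copies 51.3% (45.8 to 58.3% over libraries) and the top 50 copies 95.2%. By element group, the 4 RMER names held 42.4% of ERVL counts, the 7 MLT2 names 19.8%, the 8 names of MERVL and its MT2 relatives 17.5%, the 15 LTR names 3.82% and the remaining 15 names 16.4%. RMER10A alone held 22.8%, RMER15 14.4% and MLT2B3 12.7%. The LTR of the youngest MERVL copies, MT2_Mm, was not listed under that spelling, and no listed name carried the ending _Mm. A name MT2 was listed, with 551 loci. Whether MT2 stands for MT2_Mm cannot be told from the names, so it is open whether that LTR was absent. Loci seen in a single library numbered 54678, whereas the 2231 loci seen in all 15 libraries held 71.5% of the counts.

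**Figure D1:**
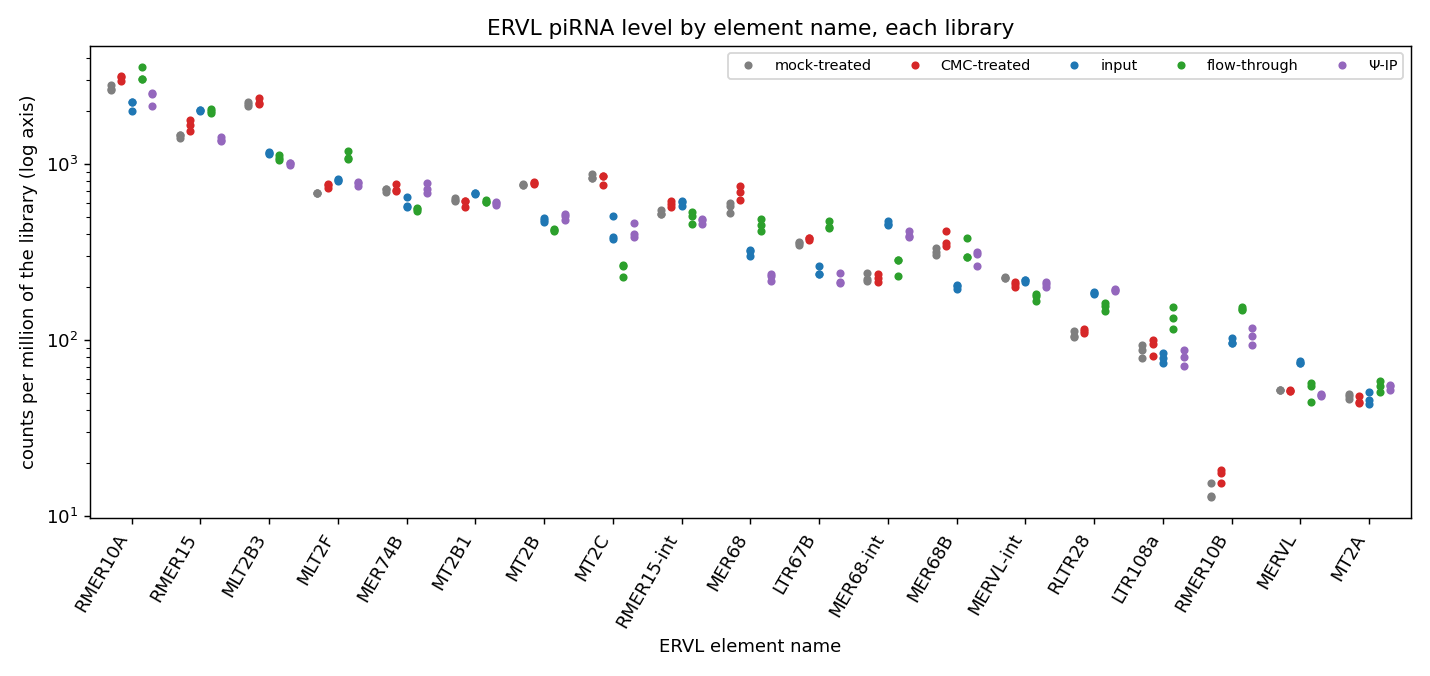
Levels of 19 ERVL element names (x axis) in each of the 15 libraries, as counts scaled to the library total on a log y axis, with 1 point for each library and colours for the groups. RMER10A is the highest name in every group but input, where it overlaps RMER15, and RMER10B lies far lower in mock-treated and CMC-treated libraries than in the others.

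For levels of elements and copies, counts were divided by library sizes normalised with TMM and given as CPM (normalised counts per 1e6), separately in each comparison. Ψ-IP was first compared with input, which asks which ERVL piRNAs the Ψ antibody enriched. Of 38 ERVL names tested, 2 had risen in Ψ-IP and 6 had fallen (edgeR's quasi-likelihood test, adjusted p below 0.01). Over all 464 repeat names, 13.6% were higher and 11.6% lower. The median log2 fold change was -0.06 over the ERVL names and 0.02 over all names.

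RMER15, an LTR of rodent genomes, was the most abundant name that was lower. The Ψ-IP libraries held 1362, 1386 and 1404 CPM of RMER15 and the input libraries 1993, 2020 and 1971 CPM. No Ψ-IP library reached the input libraries, and the log2 fold change was -0.53 ± 0.042 (SE, adjusted p = 6.87e-06). Its internal part, RMER15-int, was lower as well, with 486, 467 and 476 CPM against 598, 576 and 605 CPM (log2 -0.32 ± 0.048, adjusted p = 0.000448). RMER10A did not follow RMER15. It held 2521, 2203 and 2477 CPM in Ψ-IP against 2222, 1987 and 2226 CPM in input, overlapping ranges with a log2 difference of 0.16 ± 0.064 (adjusted p = 0.069).

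In the MERVL group, 1 of 8 names tested was lower and none was higher. It was the one listed as MERVL, with 47.8, 50.2 and 49.2 CPM in Ψ-IP against 72.7, 75.0 and 72.7 CPM in input (log2 -0.58 ± 0.063, adjusted p = 4.71e-05). Which part of the element this name covers cannot be told from the names. The separate name MERVL-int held 211, 215 and 198 CPM against 215, 219 and 211 CPM, which overlapped (log2 -0.04 ± 0.056, adjusted p = 0.572). MT2B1, MT2B, MT2C and MT2A did not pass the test either.

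MER68B was higher in Ψ-IP than in input. Its libraries held 314, 273 and 307 CPM in Ψ-IP and 199, 192 and 202 CPM in input, without overlap (log2 0.59 ± 0.064, adjusted p = 4.71e-05). MER68, the related name, fell by 0.44 ± 0.055 on the log2 scale (adjusted p = 0.000106), with 230, 222 and 235 CPM against 314, 299 and 321 CPM. MER74B was the other name that was higher (log2 0.31 ± 0.076, adjusted p = 0.0085), and MLT2B3 (log2 -0.17 ± 0.044, adjusted p = 0.00934) and LTR16C (log2 -0.96 ± 0.11, adjusted p = 7.74e-05) completed the names that were lower. The MER74B call was lost without Ψ-IP replicate 2 or 3 or input replicate 1 or 3 (log2 0.24 to 0.38), and the MLT2B3 call without Ψ-IP replicate 1 or 3 or any input replicate (log2 -0.20 to -0.16). The other 6 calls kept adjusted p below 0.01 whichever library was left out.

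The flow-through holds what the antibody did not bind, so each name was also compared between Ψ-IP and flow-through and between flow-through and input. The 3 comparisons share libraries and are not independent. Against flow-through, 6 of 38 ERVL names were higher in Ψ-IP and 10 lower, where 22.9% and 21.8% of all names were (3 higher without Ψ-IP replicate 2). Flow-through against input gave 8 higher and 7 lower, where 17.1% and 19.2% of all names were. RMER10A held 3482, 3017 and 3042 CPM in flow-through, above all Ψ-IP libraries (log2 Ψ-IP over flow-through -0.41 ± 0.073, adjusted p = 0.000561) and above all input libraries (log2 flow-through over input 0.56 ± 0.073, adjusted p = 0.000115). RMER15 was lower in Ψ-IP than in flow-through (log2 -0.53 ± 0.052, adjusted p = 1.11e-05), and its flow-through and input levels overlapped (log2 -0.01 ± 0.04, adjusted p = 0.814).

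MT2C was the other way round. Its flow-through libraries held 224, 263 and 268 CPM, against 377, 468 and 397 CPM in Ψ-IP scaled in the same comparison (log2 0.72 ± 0.098, adjusted p = 0.000101). Against input, Ψ-IP held 381, 475 and 395 CPM and input 370, 500 and 379 CPM, which overlapped. MT2C piRNAs were fewer in flow-through than in input too (log2 -0.73 ± 0.11, adjusted p = 0.000386). MER68-int was also lower in flow-through than in Ψ-IP (log2 Ψ-IP over flow-through 0.58 ± 0.092, adjusted p = 0.00028) and than in input (log2 flow-through over input -0.79 ± 0.08, adjusted p = 2.33e-05). Unlike MT2C, its Ψ-IP libraries lay below all input libraries, with 384, 401 and 412 CPM against 465, 453 and 447 CPM, though this did not pass (log2 -0.19 ± 0.051, adjusted p = 0.0151). LTR67B and MER68 had more in flow-through than in Ψ-IP, with log2 fold changes of -1.01 ± 0.071 (adjusted p = 1.58e-06) and -0.98 ± 0.074 (adjusted p = 2.29e-06). MER68B lay above input in flow-through as it did in Ψ-IP (log2 flow-through over input 0.69 ± 0.099, adjusted p = 0.000208), and Ψ-IP over flow-through gave log2 -0.11 ± 0.1 (adjusted p = 0.356). MERVL was lower than input in flow-through too (log2 -0.52 ± 0.091, adjusted p = 0.000875), and its Ψ-IP and flow-through levels overlapped.

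**Figure D2:**
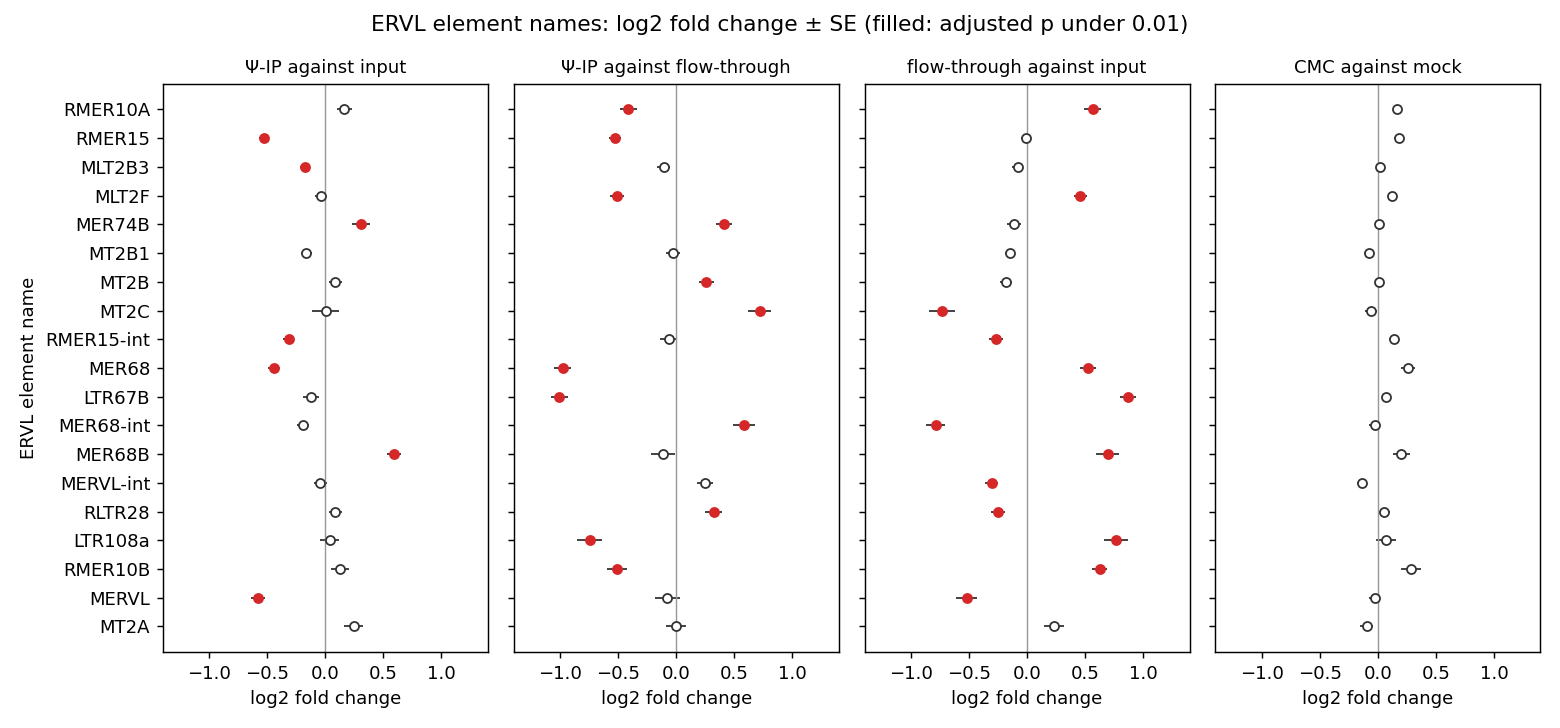
Log2 fold changes (x axis) of 19 ERVL element names (y axis) with bars of 1 SE, in 1 panel for each comparison, where filled red points passed adjusted p below 0.01. RMER15 lies left of 0 against both input and flow-through, RMER10A lies right of 0 in flow-through against input, and no name passed in CMC against mock.

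Element names pool copies at different places, so each copy was tested on its own. Of 103 ERVL copies tested in Ψ-IP against input, 15 were higher and 21 lower, where 15.7% and 18.1% of all copies were. The number higher was 7 without input replicate 1 and 8 without input replicate 3. Copies of 1 name did not move as a unit. RMER10A had 3 of 8 copies higher and none lower, RMER15 had 2 of 17 higher and 7 lower, MLT2B3 had 1 of 3 higher and 1 lower, and none of the 6 MERVL-int copies passed.

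The most abundant copy was the RMER10A element chr9:54238334-54238765 on the minus strand, within an intron of Cyp19a1 (aromatase, which makes oestrogens) and on the strand of that gene. It held 1206, 955 and 1269 CPM in Ψ-IP, 1450, 1155 and 1519 CPM in input and, beside input in their own comparison, 2129, 1768 and 1723 CPM in flow-through. Ψ-IP and input overlapped (log2 -0.27 ± 0.11, adjusted p = 0.054), and flow-through lay above input (log2 0.44 ± 0.097, adjusted p = 0.00268).

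The RMER10A copies that rose were other ones. The intergenic copy chr18:67064255-67064706 (-) held 656, 550 and 571 CPM in Ψ-IP against 240, 286 and 229 CPM in input (log2 1.23 ± 0.088, adjusted p = 6.78e-07). In flow-through it held 793, 673 and 705 CPM, scaled with Ψ-IP, so both fractions lay well above input (log2 flow-through over input 1.56 ± 0.096, adjusted p = 1.02e-06). The copy chr6:87989724-87990083 (-), in an intron of Gm5577 on the opposite strand, rose from 129, 147 and 115 CPM in input to 235, 233 and 249 CPM in Ψ-IP (log2 0.88 ± 0.086, adjusted p = 5.43e-06). Its flow-through libraries held 111, 124 and 128 CPM, all below Ψ-IP (log2 1.02 ± 0.087, adjusted p = 5.49e-07), so this copy was higher in Ψ-IP than in both other fractions. The copy chr6:128445792-128446202 (+) had a log2 fold change of 0.61 ± 0.085 over input (adjusted p = 8.68e-05) and of -0.55 ± 0.11 against flow-through (adjusted p = 0.000563).

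The most abundant RMER15 copy, the intergenic chr5:113348938-113349079 (+), was among those that fell. Ψ-IP held 350, 350 and 362 CPM of it and input 834, 738 and 761 CPM, so the groups lay far apart (log2 -1.14 ± 0.058, adjusted p = 9.98e-08). Flow-through lay between them with 556, 618 and 605 CPM, scaled with Ψ-IP. The copy on chromosome 4 in an intron of Gm12648, chr4:94280063-94280288 (-), went up instead (log2 0.95 ± 0.17, adjusted p = 0.000555), at 4.82, 4.56 and 5.50 CPM against 2.65, 2.47 and 2.65 CPM.

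MLT2B3, an MLT2 LTR, also had copies that differed. The intergenic copy chr6:81899939-81900333 (-) held 371, 360 and 396 CPM in Ψ-IP against 589, 573 and 566 CPM in input (log2 -0.62 ± 0.055, adjusted p = 3.08e-06). The copy chr6:85989011-85989237 (-) held 470, 467 and 473 CPM against 413, 444 and 449 CPM, a log2 difference of 0.11 ± 0.055 that did not pass (adjusted p = 0.115). The intergenic MERVL copy chr8:92197904-92198418 (+) fell as the name MERVL did, with 24.1, 24.9 and 27.4 CPM against 48.5, 48.3 and 46.8 CPM (log2 -0.90 ± 0.087, adjusted p = 5.2e-06).

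The MER74B copy chr5:143763910-143764279 (+), whose sequences are printed above, held 672, 775 and 715 CPM in Ψ-IP against 563, 633 and 553 CPM in input (log2 0.31 ± 0.066, adjusted p = 0.00223). The groups did not overlap, but the call was lost without Ψ-IP replicate 3 or input replicate 1 or 3 (log2 0.25 to 0.37). The MT2C copy chr17:27338531-27338980 (+) held 111, 155 and 149 CPM in flow-through against 301, 380 and 314 CPM in Ψ-IP, which lay apart (log2 1.26 ± 0.13, adjusted p = 2.1e-06). Ψ-IP and input overlapped for it (log2 0.09 ± 0.14, adjusted p = 0.624). Over all tested copies, Ψ-IP against flow-through gave 20 of 104 higher and 25 lower, where 24.3% and 24% of all copies were, and flow-through against input 24 of 108 higher and 21 lower, where 21.3% and 20.7% were.

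**Figure D3:**
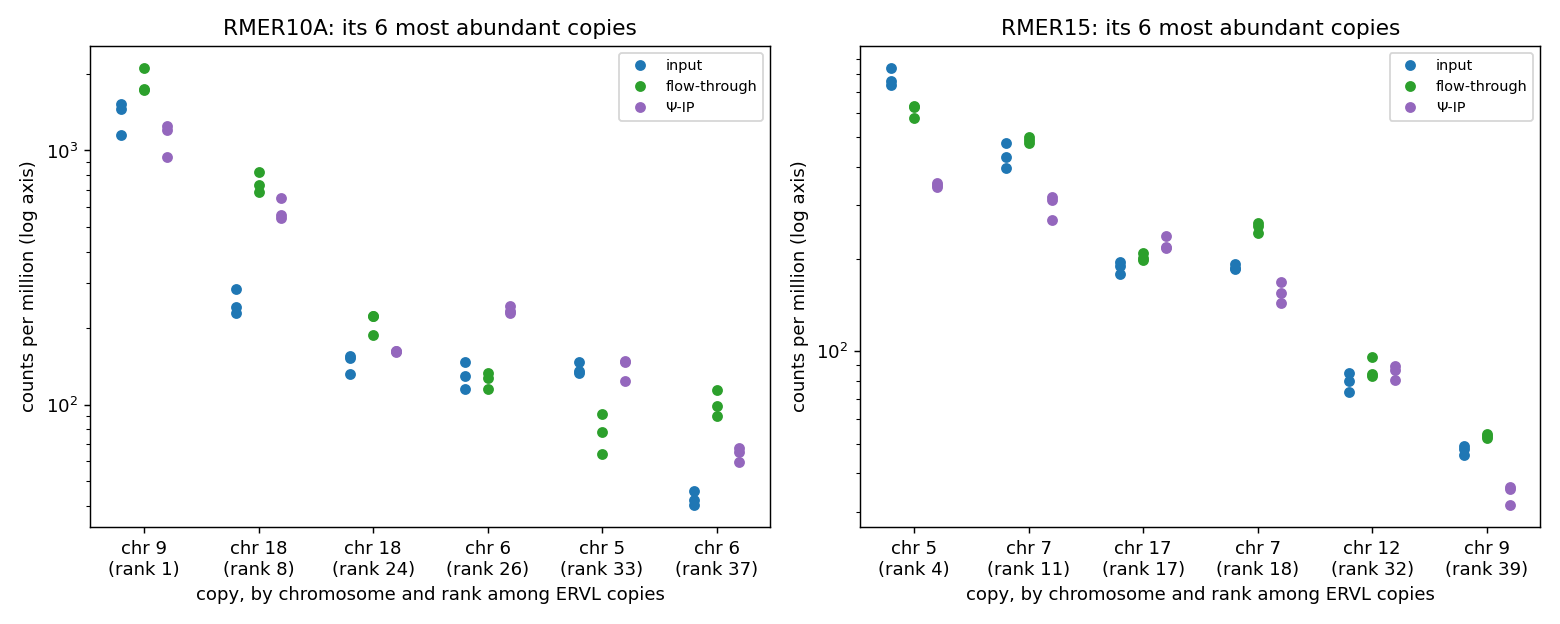
Levels of the 6 most abundant RMER10A copies (left) and RMER15 copies (right) in input, flow-through and Ψ-IP, as CPM of each library total on log axes, with 1 point for each library and copies named by chromosome and by rank among all ERVL copies. The RMER15 copy of chromosome 5 (rank 4) falls from input through flow-through to Ψ-IP, the RMER10A copy of chromosome 18 (rank 8) is lowest in input, and the RMER10A copy of chromosome 6 (rank 26) is highest in Ψ-IP.

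Of the 136 copies tested in any comparison, 81 were intergenic and held 43.9% of ERVL counts, and 19 lay in introns on the strand of the gene with 32.5%. Another 12 lay in introns on the opposite strand (8.01%), 20 in exons on the same strand (14.6%) and 4 in exons on the opposite strand (0.256%). Within a copy, few 5′ ends were used often. Of the 307 5′ ends in the RMER10A copy of chromosome 9, position 54238700 had 47.3% of its counts on average (36.4 to 52.9% over libraries). The leading 5′ end of the RMER15 copy chr7:73824002-73824252, which opens the first sequence above, had 79.6%, and that of the MLT2F copy chr5:149802713-149803335 had 11.6% of 516 5′ ends.

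Length differed between element names. The top copy held 83.2% of the MT2C level, 90.2% of MER68, 66.5% of RMER10A and 55.5% of MT2B1, so names and single copies are hard to tell apart here. In mock-treated libraries, 57.1% ± 1.0 (SD, n = 3) of MT2C counts were 25 to 27 nt long and 23.2% ± 0.65 were 29 to 31 nt long. MT2B1, another LTR of the MERVL group, was the reverse with 7.77% ± 0.26 and 74.4% ± 0.38. RMER10A had 14.5% ± 1.0 and MER68 36.9% ± 0.27 in the shorter class. The input libraries, made with the other kit, gave 36.1% ± 1.6 for MT2C, 37.2% ± 2.5 for MER68, 10.8% ± 0.70 for MT2B1 and 7.71% ± 0.35 for RMER10A, so MT2C lay above MER68 in mock-treated libraries and beside it in input. The length range differed too. Loci of 34 to 44 nt took 1.02% ± 0.11 of ERVL counts in input and 0% in mock-treated and CMC libraries. Over all ERVL piRNAs, 25 to 27 nt took 13.2% ± 0.49 in Ψ-IP and 14.3% ± 0.26 in input, which did not overlap (exact permutation p = 0.1), and 22.2% ± 0.53 in CMC and 21.6% ± 0.73 in mock (exact permutation p = 0.3). In the wider class of 24 to 28 nt, CMC with 35.1% ± 0.52 lay above mock with 33.4% ± 0.70 without overlap (exact permutation p = 0.1), and Ψ-IP and input overlapped (exact permutation p = 0.3). piRNAs outside ERVL moved the same way, with 12.5% ± 0.49 in Ψ-IP and 13.7% ± 0.32 in input at 25 to 27 nt and 32.6% ± 0.43 in CMC and 30.4% ± 0.50 in mock at 24 to 28 nt (exact permutation p = 0.1 for both). Among ERVL piRNAs, 29 to 31 nt took 68.1% ± 0.97 in Ψ-IP and 66.7% ± 0.46 in input (exact permutation p = 0.2), and 55.1% ± 1.7 in CMC and 56.6% ± 1.6 in mock (exact permutation p = 0.4).

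**Figure D4:**
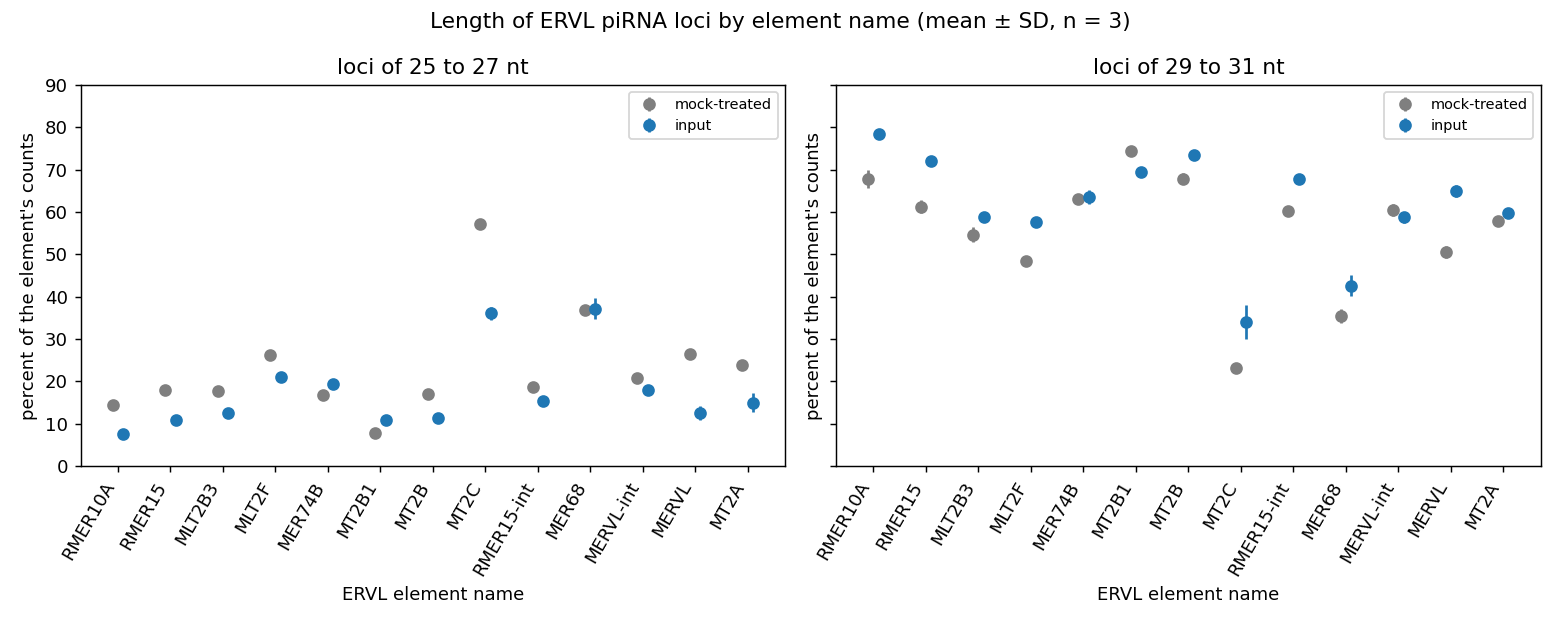
Percent of each element's counts in loci of 25 to 27 nt (left) and 29 to 31 nt (right) for 13 ERVL names, as mean and SD of 3 mock-treated (grey) or input (blue) libraries. MT2C has 57.1% of its mock-treated counts in the shorter class, and MT2B1 has 74.4% in the longer one.

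Of 7549 ERVL loci with more than 20 counts, 356 were higher in Ψ-IP than in input and 831 lower, where 5.45% and 10.7% of all loci were. Without input replicate 1 these were 168 and 453 loci, and without input replicate 3 they were 165 and 513. The median log2 fold change was -0.21 over the ERVL loci and -0.10 over all loci, so TMM scaling did not centre the loci at 0. Loci that were lower had a median log2 fold change of -2.47 and those higher of 1.75. Against flow-through, 559 were higher and 264 lower, where 9.3% and 3.56% of all loci were. RMER10A had 98 loci higher and 100 lower of 1021, and RMER15 had 32 higher and 156 lower of 964.

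In the following values, CPM is scaled to the total count of the library alone, whereas log2 fold changes come from the TMM-scaled fit. The most abundant ERVL piRNA, the 31-nt RMER10A locus chr9:54238670-54238700 (-), had 342, 273 and 369 CPM in Ψ-IP against 525, 399 and 545 CPM in input (log2 -0.72 ± 0.18, adjusted p = 0.001). The call was lost without input replicate 1 or 3 (log2 -0.85 to -0.63 over the fits that left out 1 library). The 30-nt locus that shares its 3′ end and starts 1 base later, chr9:54238670-54238699, had 303, 224 and 298 CPM against 268, 209 and 272 CPM (log2 -0.00 ± 0.19, adjusted p = 0.993). The most abundant RMER15 locus, the 31-nt chr5:113348949-113348979 (+), had 95.6, 100 and 108 CPM in Ψ-IP against 252, 171 and 187 CPM in input (log2 -1.15 ± 0.19, adjusted p = 1.41e-07). Its flow-through libraries held 28.5, 38.7 and 53.9 CPM, below all Ψ-IP libraries (log2 Ψ-IP over flow-through 1.58 ± 0.25, adjusted p = 1.82e-08), whereas flow-through lay above Ψ-IP for the whole copy.

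Loci of different length that share a 5′ end were set side by side, with no test of the differences between them. At the 5′ end 54238700 of the RMER10A copy of chromosome 9, the log2 fold change was -0.72 ± 0.18 at 31 nt, -1.25 ± 0.2 at 30 nt, -1.86 ± 0.25 at 29 nt and -2.08 ± 0.24 at 28 nt. The MLT2F copy of chromosome 5 had -0.81 ± 0.22 at 32 nt, -1.29 ± 0.22 at 31 nt, -2.13 ± 0.29 at 30 nt and -2.59 ± 0.32 at 29 nt at its leading 5′ end. The RMER15 copy of chromosome 7 had -0.60 ± 0.20 at 29 nt, -0.69 ± 0.20 at 30 nt, -0.73 ± 0.20 at 31 nt, -1.01 ± 0.22 at 32 nt and -1.28 ± 0.24 at 33 nt, and its neighbouring lengths differed by less than 2 SE. At the leading 5′ end of the RMER10A copy of chromosome 18, the values stayed between 2.13 and 2.43 from 27 to 31 nt.

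Some single loci fell much further than their copy did. The MLT2B3 locus chr6:81900174-81900205 (-) had 8.14, 5.70 and 5.35 CPM in Ψ-IP against 71.9, 60.4 and 64.4 CPM in input (log2 -3.51 ± 0.23, adjusted p = 1.48e-43), and flow-through held 79.6, 62.9 and 59.7 CPM. The RMER15 locus chr5:113349011-113349036 (+) had 0.599, 0.864 and 0.460 CPM against 10.1, 9.41 and 12.3 CPM (log2 -4.24 ± 0.33, adjusted p = 1.22e-32). The RMER10A locus chr9:54238346-54238371 (-) had 0.685, 0.777 and 1.34 CPM against 11.2, 9.53 and 10.2 CPM (log2 -3.49 ± 0.30, adjusted p = 3.17e-26), with 1.21, 2.81 and 2.31 CPM in flow-through. At the chromosome 18 RMER10A copy, the 30-nt locus chr18:67064284-67064313 (-) rose from 28.7, 36.0 and 25 CPM to 179, 116 and 139 CPM (log2 2.13 ± 0.21, adjusted p = 1.57e-21), and its flow-through libraries held 247, 181 and 196 CPM. Among the loci with sequence, T made up a median of 40.0% of bases in the 67 that were higher, 29.3% in the 96 that were lower and 32.1% in the 792 not called. Of those 67 loci, 46 were MER74B loci of chromosome 5 and 12 were RMER10A loci of chromosome 18. The same sources gave 35 and 21 of the 96 loci that were lower. Few places thus set these figures, and both directions drew on the same ones.

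CMC treatment was compared with mock treatment next, which asks whether ERVL piRNAs were lost from libraries when Ψ was blocked. No ERVL name of 37 tested passed in either direction, where 2.11% of all names were higher and 4.02% lower. At an unadjusted p under 0.05 there were 11 of the 37, and 141 of all 473 names. DESeq2 called 3 ERVL names higher among 21 of all names. With the replicate number as a block, edgeR called 5 higher among 21 of all names, and without CMC replicate 1 it called 2 ERVL names. RMER10A held 3139, 3096 and 2897 CPM in CMC against 2791, 2690 and 2649 CPM in mock (log2 0.17 ± 0.039, adjusted p = 0.0147), and RMER15 held 1544, 1738 and 1638 CPM against 1456, 1463 and 1426 CPM (log2 0.18 ± 0.042, adjusted p = 0.017). For both names every CMC library lay above every mock library, though neither passed the threshold. MERVL-int lay the other way, with 216, 204 and 197 CPM against 227, 226 and 227 CPM (log2 -0.14 ± 0.042, adjusted p = 0.0489).

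Of 132 ERVL copies, 1 was higher after CMC and 0 lower in edgeR, where 0.669% and 1.83% of all copies were. An unadjusted p under 0.05 was reached by 39 of them and by 1097 of all 4482 copies. DESeq2 called 6 ERVL copies higher and 2 lower, among 103 and 147 of all copies, and the replicate block 8 higher and 3 lower, among 122 and 175. The copy called was RLTR28 chr18:67072582-67072886 (+), in an exon of AC140207.2, with 29.6, 30.0 and 28.1 CPM in CMC against 24.2, 22.6 and 22.8 CPM in mock (log2 0.34 ± 0.062, adjusted p = 0.00814). Its call was lost without CMC replicate 1 or 2 or any mock replicate, with log2 values of 0.31 to 0.36, and also with loci of 24 to 33 nt only (log2 0.28, adjusted p = 0.0161). The RMER10A copy of chromosome 9 held 2606, 2526 and 2238 CPM against 2246, 2121 and 2125 CPM, higher in 8 of 9 pairs of libraries with some overlap (log2 0.18 ± 0.052, adjusted p = 0.0506).

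At the level of loci, 112 of 6854 ERVL loci were higher after CMC and 13 lower, where 1.07% and 0.654% of all loci were, and the replicate block gave 133 and 29, among 6912 and 5709 of all 556583 loci. DESeq2 called 57 higher and 11 lower, among 3625 and 2721 of all loci. Without mock replicate 2 there were 65 higher and 6 lower, and without CMC replicate 1 there were 26 lower. The rise with the smallest adjusted p was that of a 28-nt RMER10A locus, chr9:54238670-54238697 (-), with 0.253, 0.205 and 0.449 CPM in mock and 17.7, 19 and 17.4 CPM in CMC (log2 5.86 ± 0.21, adjusted p = 4.34e-25). It ends where the 31-nt locus chr9:54238670-54238700 ends but starts 3 bases further in. The 31-nt locus itself had 775, 764 and 650 CPM in CMC and 752, 716 and 670 CPM in mock (log2 -0.03 ± 0.1, adjusted p = 0.94). The groups overlapped for the longer locus and lay far apart for the shorter one.

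The largest fall among loci averaging 100 counts or more was that of a 20-nt RMER15 locus, chr5:113348960-113348979 (+), which ends where the 31-nt RMER15 locus described above ends. It had 267, 209 and 173 counts in mock (7.50, 3.58 and 4.32 CPM) and 2, 3 and 3 counts in CMC (0.0409, 0.124 and 0.110 CPM), so the groups lay far apart (log2 -5.98 ± 0.35, adjusted p = 5.01e-17). The call held whichever library was left out (log2 -6.24 to -5.48). The locus had 0 counts in all 9 libraries of the other experiment. The 31-nt locus had 29.2, 42.5 and 54.1 CPM in CMC against 66.9, 54.5 and 38.4 CPM in mock, which overlapped (log2 -0.42 ± 0.15, adjusted p = 0.142).

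A longer locus with the same 3′ end, as at the 28-nt RMER10A locus, was common among the loci that were higher. Of the 112, 63 (56.3%) shared their 3′ end with a longer ERVL locus more than 10-fold as abundant in mock, in 62 cases with a start 1 to 4 bases further in, and they came from 11 element names. Over all 6854 loci tested, 865 (12.6%) had such a partner, and of the 13 loci that were lower 1 had. Among loci below 0.5 CPM in mock, 49 of 60 that were higher (81.7%) had one and 694 of 4592 not called (15.1%). In 7 of the 63 cases the shorter locus was at 0 in mock, where any longer locus counts as a partner. With partners of at least 1 CPM in mock only, the counts were 61 of 112 loci higher (54.5%) and 848 of those tested (12.4%). For a shared 5′ end and partners of any level, the shares were 26.8% of loci higher and 16.8% of those tested, but with partners of at least 1 CPM they were 13.4% and 16.3%. Mock values enter both the calls and the choice of partners, so these shares are a description. In Ψ-IP against input, 15 of 356 loci that were higher (4.21%) had a longer partner of the same 3′ end, where 7.30% of loci tested did.

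Shortened reads were also counted without using the calls. Longer loci were chosen in the input libraries (at least 10 CPM), and reads that started inside them but kept the 3′ end were counted per 1000 reads of the longer loci. For a start 3 bases in, CMC libraries had 15.7 ± 0.80 (SD, n = 3) and mock libraries 6.63 ± 0.27 per 1000, and for 4 bases in 15.1 ± 0.63 and 6.51 ± 0.41. In neither case did the groups overlap (exact permutation p = 0.1, the smallest possible). Much of this came from the RMER10A copy of chromosome 9, with 19.6 ± 1.7 in CMC and 1.76 ± 0.12 in mock at 3 bases. Without that copy the values were 12.7 ± 0.51 and 10.2 ± 0.19, still without overlap (exact permutation p = 0.1). At the other starts from 1 to 6 bases in, CMC also lay above mock without overlap, with or without that copy, except at 5 bases without it (3.19 ± 0.44 and 2.78 ± 0.18, exact permutation p = 0.3). In Ψ-IP the count at 3 bases was 7.46 ± 1.5 and in input 9.89 ± 0.64 per 1000, without overlap. Over all longer loci, and without the RMER10A copy, Ψ-IP lay below input at each of the 6 starts. For that copy alone, the groups overlapped at 1, 2, 5 and 6 bases. Its Ψ-IP mean lay above input at 1 base (61.0 and 59.4) and at 6 bases (0.509 and 0.237).

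**Figure D5:**
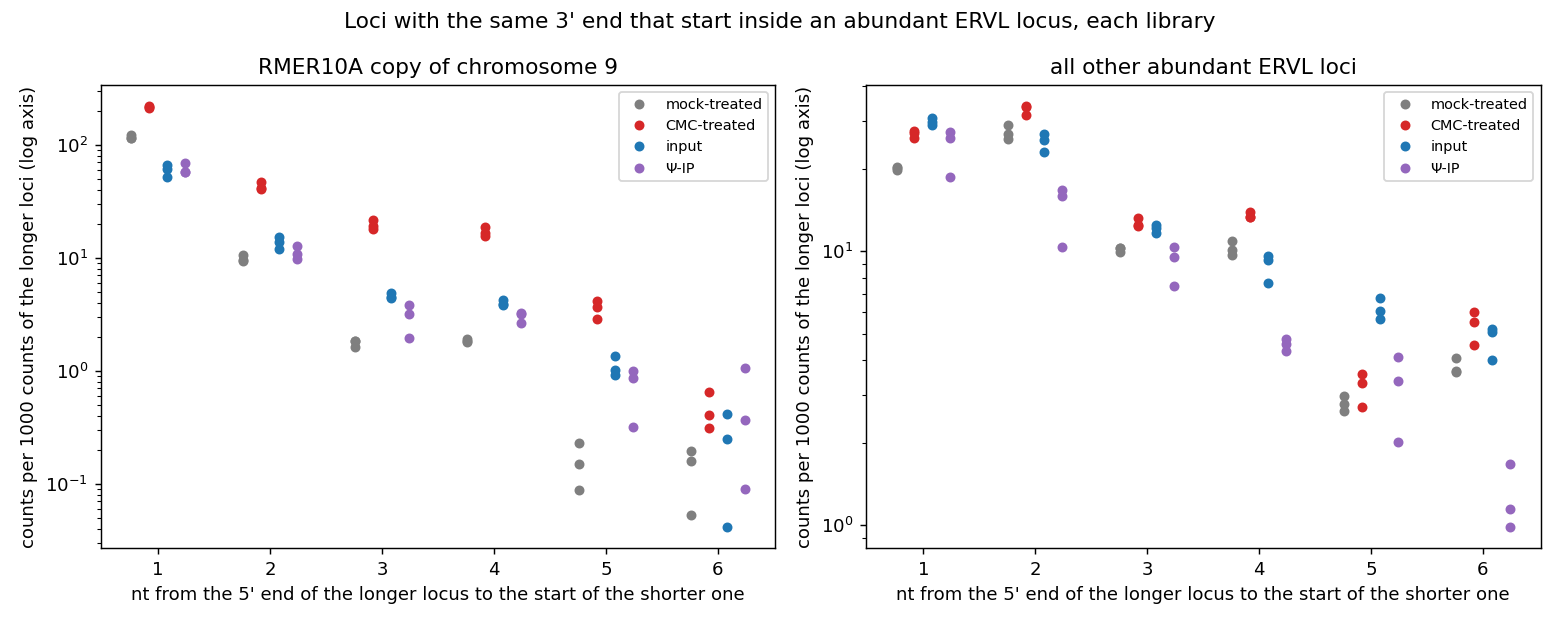
Counts of loci that start 1 to 6 nt inside an abundant ERVL locus (x axis) and keep its 3′ end, per 1000 counts of the longer loci on log y axes, for the RMER10A copy of chromosome 9 (left) and all other abundant loci (right), with 1 point for each library. At 3 nt the CMC-treated libraries average 19.6 against 1.76 in mock for the RMER10A copy and 12.7 against 10.2 for the rest.

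Few of the shortened loci lay in exons, and the longer sequence could be read only for MER74B on chromosome 5. The bases printed here are therefore examples. The MER74B piRNA chr5:143764159-143764186 (+) is printed here with the base just before the start of its shortened locus in capitals.
MER74B on chromosome 5: tTgtgtatccaaaccctctgaactgttc
The locus that began 2 bases in was higher after CMC (log2 3.20, adjusted p = 1.83e-07). For the MER74B piRNA with the leading 5′ end, printed with the first sequences, the locus that began 1 base in had a log2 fold change of 3.14 (adjusted p = 0.00101). The base before it is the capital T that opens that sequence, and 93.5% of readable ERVL counts began with T. Other shortened loci that were higher were the MLT2B3 locus chr6:81900290-81900314 (-), with 4.23, 6.58 and 6.11 CPM in CMC against 1.26, 1.27 and 1.07 CPM in mock (log2 2.14 ± 0.18, adjusted p = 1.12e-11), and the MER68B locus chr4:94294366-94294389 (-), with 4.89, 4.47 and 4.86 CPM against 1.4, 1.56 and 1.60 CPM (log2 1.58 ± 0.17, adjusted p = 7.84e-09).

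Calls of the same locus were also set side by side over both experiments. Of 3407 ERVL loci tested in both, 222 were higher and 473 lower in Ψ-IP, where 7.87% and 13.0% of all loci tested in both were (6.52% and 13.9% of the ERVL loci). After CMC, 50 were higher and 10 lower (1.47% and 0.294%), where 0.958% and 1.09% of all loci were. A single locus (0.0294%) was higher in Ψ-IP and lower after CMC, where 0.298% of the 293568 loci of any kind tested in both were. It was the 27-nt MLT2B3 locus chr17:27350453-27350479 (+). It had 6.77, 5.62 and 6.52 CPM in Ψ-IP against 1.99, 3.14 and 2.33 CPM in input (log2 1.22 ± 0.28, adjusted p = 0.000193) and 37.3, 31.4 and 34 CPM in CMC against 51.0, 52.3 and 62.1 CPM in mock (log2 -0.75 ± 0.12, adjusted p = 5.36e-05). Its groups overlapped in neither experiment, and the Ψ-IP call was lost without input replicate 1. Another 15 loci (0.44%) were lower in Ψ-IP and higher after CMC, where 0.19% of all loci were. One, or 0.0294%, was lower in both (0.0576% of all loci) and none was higher in both (0.0361% of all loci).

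MERVL-int had 3 loci lower after CMC and none higher of 358 tested. The share lower was 0.838%, where 0.654% of all loci were. The 31-nt locus chr10:85757987-85758017 (+) was one of them, with 13.1, 9.52 and 9.51 CPM in CMC against 17.8, 17.9 and 18.9 CPM in mock (log2 -0.81 ± 0.14, adjusted p = 0.000101). In the other experiment it had 4.45, 4.23 and 3.80 CPM in Ψ-IP and 5.03, 6.94 and 4.98 CPM in input, which did not pass (log2 -0.58 ± 0.27, adjusted p = 0.0949). Its flow-through libraries held 0.791, 2.05 and 3.01 CPM, below all Ψ-IP libraries (log2 Ψ-IP over flow-through 1.37 ± 0.39, adjusted p = 0.00376).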

How the data were processed

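Small RNA from testes of 15 libraries in 5 groups of 3 was analysed. Per the labels and the study's methods, the authors clipped adapters with Cutadapt, filtered reads by length and quality, set tRNA fragments aside, mapped the rest to mm10 with Bowtie2 and assigned reads to repeats with bedtools, after removing structural RNA. The study's methods also intersected the reads with piRNA clusters of mm10 to obtain piRNA reads. The deposited values are raw counts per interval and strand. How reads with several genomic matches were counted is not given in the sources used here, so near-identical copies may share reads, and 3088 ERVL loci were also listed under another repeat (2.88 to 4.28% of ERVL counts).

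From the deposited counts, sums were formed per element name, per copy (merging distance 100 nt) and per locus. Each comparison was fitted over its own 6 libraries and all features with edgeR 4.0.16 (R 4.3.3; TMM, quasi-likelihood F test, Benjamini-Hochberg adjustment), called at adjusted p below 0.01, with average counts of at least 10 for names and 50 for copies and totals above 20 for loci. The standard error was taken as the absolute log2 fold change over the square root of F. DESeq2 1.42.0, a replicate block, other scalings and filters, lengths of 24 to 33 nt and each library left out were alternatives. Shares were compared with exact two-sided permutation tests, which cannot give less than 0.1 with 3 libraries against 3. The fits were tested on simulated counts with 200 changed features.

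Replicate numbers are shared between groups. Deviations of same-numbered CMC and mock libraries correlated at 0.12, 0.14 and 0.29 over 87755 loci, so the blocked counts stand beside the CMC results. In the other comparisons and levels at least 1 of the 3 correlations was at or below 0.1.

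Copies were placed with the GENCODE mouse annotation of GRCm38, leaving out genes of its provisional type TEC. Only loci inside exons had sequence to read, and here exons of any gene type were used. A copy called intergenic can therefore hold loci with sequence. The named items were the 10 names with the highest average share, MERVL-int and every name called in any comparison; the 8 copies with the highest average share and up to 5 rises and 5 falls among copies called with the same direction in all 9 pairs of libraries; and the 5 most abundant loci, the 3 largest rises and falls among called loci averaging 100 counts or more, and loci called up in Ψ-IP and down with CMC. The RMER15 copy of chromosome 7, the loci of shared ends and the printed sequences were chosen after their values were seen. The members, lists and named items were chosen with earlier results of these data known.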

Additional observations from a re-analysis of the deposited data

How the results depend on the processing

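Depth limits what can be said of single loci, since 54678 of 107968 loci were seen in a single library, and loci with 20 or fewer counts were not tested. No change of an element, copy or locus that passed the test and was recomputed changed direction under an alternative. Differences near 0 that did not pass could change sign, and the median over all names in Ψ-IP against input moved from 0.02 to between -0.02 and 0.03. Of the values of single elements, copies and loci recomputed, 866 kept their call, 66 lost it and 21 gained one, and of the recomputed counts and shares 180 stayed within the limits set (1.5 times for a count) and 46 did not. For Ψ-IP against input, the names that were higher numbered 1 instead of 2 with DESeq2 size factors, with an average of at least 100 counts or with loci of 24 to 33 nt only, and 1 to 3 when 1 library was left out (1 without Ψ-IP replicate 3, input replicate 1 or input replicate 3). Names lower in flow-through than in input numbered 4 instead of 7 at an average of at least 100 counts, and names higher in Ψ-IP than in flow-through 3 to 6 with 1 library left out. Copies higher in Ψ-IP ranged from 7 to 16 with 1 library left out.

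Loci higher and lower in Ψ-IP than in input numbered 225 and 486 with the DESeq2 Wald test and 71 and 94 at an average of at least 100 counts, where fewer loci were tested. With 1 library left out they ranged from 165 to 396 and from 453 to 789.

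For CMC against mock, names that were higher numbered 3 (DESeq2 Wald test), 5 (replicate block), 1 (total counts as library size) and 1 (no filter) instead of 0, and 0 to 2 with 1 library left out. Copies that were higher numbered 6 (DESeq2 Wald test), 8 (replicate block), 2 (average of at least 10 counts) and 2 (24 to 33 nt) instead of 1, and 0 to 3 with 1 library left out. Copies that were lower numbered 2 (DESeq2 Wald test), 3 (replicate block) and 0 to 1 (1 library left out) instead of 0. Loci that were higher numbered 57 (DESeq2 Wald test), 36 (average of at least 100 counts) and 65 to 113 (1 library left out) instead of 112, and loci that were lower 29 (replicate block), 7 (average of at least 100 counts) and 6 to 26 (1 library left out) instead of 13. The cause was not tested. The replicate block moved no other count it was run for by more than 1.5 times, and it was not run for copies and loci against flow-through or for copies in flow-through against input. The shares without RMER10A, the counts of reads that start inside longer loci, the 1 CPM minimum for longer partners, the counts over all loci called in both experiments and the copy comparisons with flow-through were chosen after seeing the data.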

Other observations

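RMER10B stood at different levels in the 2 experiments. It held 15.3, 12.9 and 13.1 CPM in mock-treated libraries and 101, 95.0 and 94.5 CPM in input libraries, each scaled within its own comparison. The kits differed between these libraries, and kit and experiment cannot be told apart. MLT2C2 likewise held 0.450, 0.431 and 0.480 CPM in mock-treated and 8.02, 6.92 and 7.41 CPM in input libraries.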
